A study of Rattus norvegicus with 6 samples.

Results

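The genes of the major histocompatibility complex (MHC) class II pathway of antigen presentation were examined in the testis of diabetic and non-diabetic rats. The set held 9 gene symbols, namely Cd74, RT1-Ba, RT1-Bb, RT1-Da, RT1-Db1, RT1-DMa, RT1-DMb, RT1-DOb and Ciita, and every gene of the expression table listed under one of them was taken. This gave 10 of the 35291 genes of the table, because RT1-DMb labelled 2 of them. The genes were selected on their FPKM values in these same diabetic and non-diabetic testes, so the difference between the groups is given below as a description, without a test.

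RNA-Seq of whole testis was available from 3 diabetic (DM) and 3 non-diabetic (ND) male Sprague-Dawley rats. The DM rats had eaten a high-fat diet for a month and had then received a single intraperitoneal injection of streptozotocin (STZ), a toxin of the insulin-producing beta cells, and only animals whose blood glucose stayed high counted as diabetic. The ND rats had received citrate buffer, the vehicle of STZ, and the methods do not say which diet they ate. All testes were taken at week 8 after the injection. STZ and the diet went together in the DM rats, so their effects cannot be told apart. Values are FPKM, the fragments mapped to a gene scaled for the length of its transcript and for the size of the library, so levels can be compared between genes. The deposited values carry no read counts, so the depth behind each value is unknown. The FPKM of a testis summed to between 453304 and 478211. Germ cell markers marked the tissue as testis: the summed level of 8 of them lay between 8066 and 9612 FPKM in the DM rats and between 7581 and 10313 FPKM in the ND rats.

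MHC class II molecules are pairs of an alpha and a beta chain on the cell surface that show peptides from endocytosed proteins to CD4+ T cells. In the rat the classical molecules are RT1-B, the counterpart of human HLA-DQ, and RT1-D, the counterpart of HLA-DR. The invariant chain Cd74 fills the peptide groove of a new class II molecule and steers it to endosomes, where the DM molecule exchanges the remaining invariant chain fragment for peptide and the DO molecule restrains DM. Transcription is governed by the coactivator Ciita, which docks on the RFX complex, CREB and NF-Y bound to the X and Y boxes of class II promoters. Macrophages, dendritic cells and B cells are the classical carriers of these molecules, and the interstitium of the rat testis holds many macrophages.

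Promoter sequences that hold the core letters of these boxes are shown first. RefSeq promoters of the assembly GRCr8, each from 250 bases before to 50 bases after the gene start, matched 7 of the 9 symbols. The core of the Y box, TGATTGG, was searched on both strands and found in 6 of these 7 promoters, against 7.06% of all 33469 promoters. The core of the X box, GCAAC, was found in 5, against 35.1% of all promoters. The X box core stood 20 to 40 bases before the Y box core in 4 of the 7, against 0.176% of all promoters. The letters were chosen with the class II promoters in view, and a match of letters is not a measured binding site. Stretches of 48 bases, 5′ to 3′ along the gene's strand, are printed for the promoters that held a Y box core, with both cores in capitals. They lie at chr20:4576974-4577021 on the plus strand (RT1-Ba), chr20:4604172-4604219 on the minus strand (RT1-Bb), chr20:4515326-4515373 on the plus strand (RT1-Da), chr20:4560235-4560282 on the minus strand (RT1-Db1), chr20:4712392-4712439 on the minus strand (RT1-DMa) and chr20:4627599-4627646 on the minus strand (RT1-DOb).
RT1-Ba: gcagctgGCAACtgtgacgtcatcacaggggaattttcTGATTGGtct
RT1-Da: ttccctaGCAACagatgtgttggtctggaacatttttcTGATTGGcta
RT1-Db1: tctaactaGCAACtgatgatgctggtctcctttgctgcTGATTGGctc
RT1-DOb: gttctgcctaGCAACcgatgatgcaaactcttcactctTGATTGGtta
RT1-Bb: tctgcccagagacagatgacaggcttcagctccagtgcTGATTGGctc
RT1-DMa: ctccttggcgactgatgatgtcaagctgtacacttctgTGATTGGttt

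**Figure D1:**
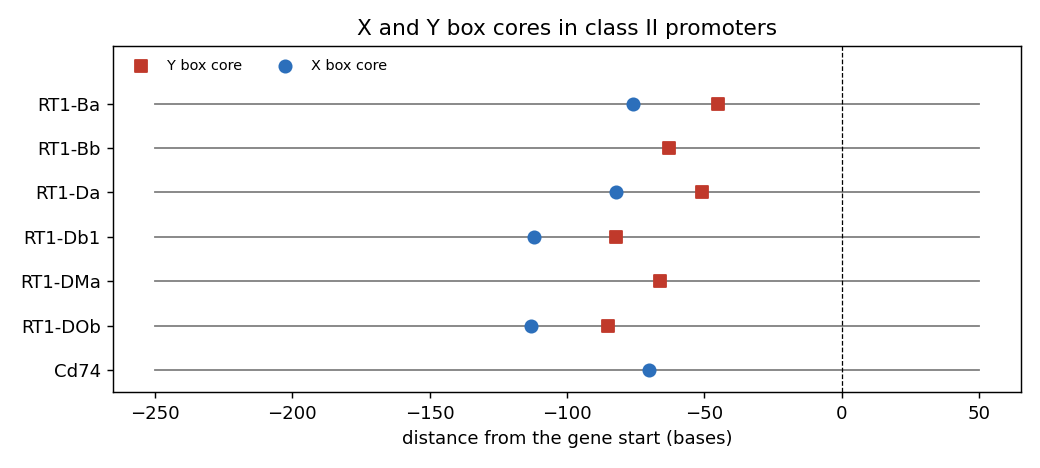
Positions of the X box core (circles) and the Y box core (squares) in 7 class II promoters, in bases from the gene start (dashed line); each horizontal line is one 300-base window. The Y box core lay 45 to 85 bases before the start in 6 promoters, and the X box core 28 to 31 bases before it in 4 of them.

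The spacing between the cores was alike in the 4 genes that carried both. It was 31 bases in RT1-Ba and RT1-Da, 30 bases in RT1-Db1 and 28 bases in RT1-DOb, counted from the first base of one core to the first base of the other. Only exact letters were searched, so a box with a changed letter was not counted, and RT1-Bb and RT1-DMa may hold one. The Cd74 window held the X box core, 70 bases before the start, and not the letters TGATTGG. Of the 4 genes with the motif pair, RT1-Ba and RT1-Da were lower in every DM rat than in every ND rat. The groups overlapped for RT1-Db1, which had no settled direction, and for RT1-DOb, which was listed at 0 in 3 rats. A link between the motif pair and expression was not tested.

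Among the class II genes, Cd74 and the chains of RT1-B and RT1-D had means above 0.5 FPKM in both groups, and the peptide exchange genes had means below it. RT1-Bb and Cd74 were the most abundant. A mean of 0.5 FPKM over all 6 rats was the level a gene needed to enter the comparison across all genes, which 6 of the 10 genes reached and RT1-DMa, both RT1-DMb genes and RT1-DOb did not. In 3 of the 10 genes, Cd74, RT1-Ba and RT1-Da, every DM rat lay below every ND rat, and in 0 every DM rat lay above. Over all 30782 genes with a value above 0 such a lower separation occurred in 7.46% and a higher one in 4.02%. Since the set was chosen with this difference known, nothing is read from its count. In bulk tissue, fewer cells carrying class II molecules and less of their RNA per cell cannot be told apart.

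**Figure D2:**
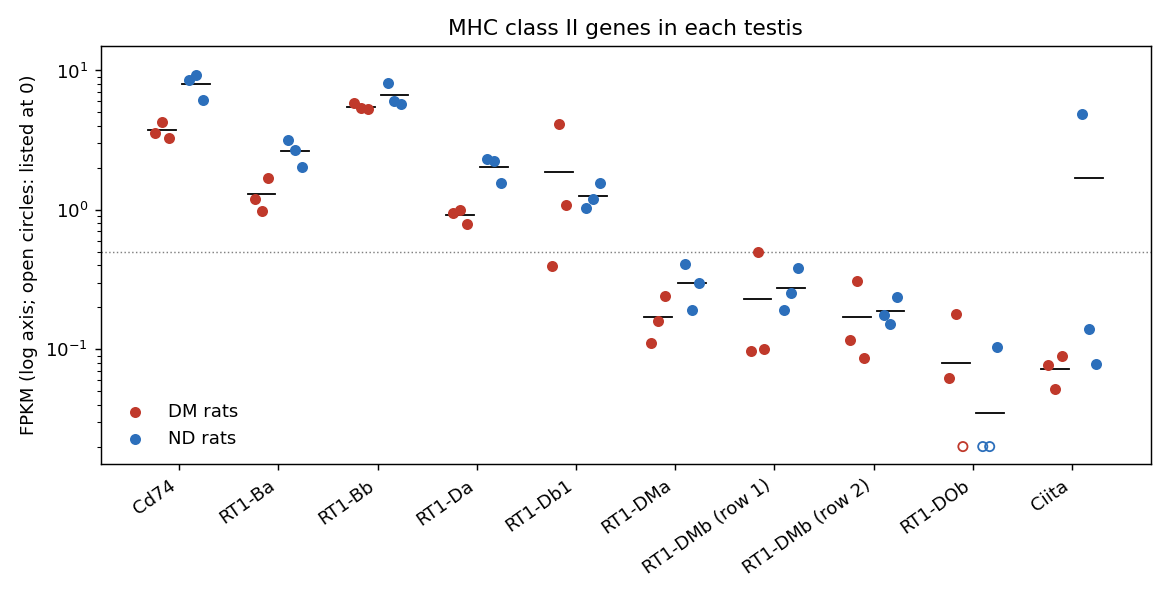
FPKM (log axis) of each class II gene in the 3 DM and 3 ND rats; points are single rats, bars are group means, open circles are values listed at 0 and the dotted line is the mean of 0.5 FPKM needed to enter the comparison. Cd74, RT1-Ba and RT1-Da separate the groups, and Ciita stands apart in a single ND rat at 4.86 FPKM.

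The invariant chain gene Cd74 (ENSRNOG00000018735) measured 3.56, 4.29 and 3.30 FPKM in DM rats 1 to 3 and 8.57, 9.33 and 6.18 FPKM in ND rats 1 to 3. All DM rats lay below all ND rats, and the lowest ND rat was still above the highest DM rat. The means were 3.72 ± 0.515 (SD, n = 3) in DM and 8.02 ± 1.64 (SD, n = 3) in ND, a ratio of DM to ND of 0.463. The log2 fold change, DM minus ND on the log2(FPKM + 0.1) scale used throughout, was -1.08 (SE 0.18).

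Among the classical chains, the log2 fold changes of the alpha chain genes RT1-Da and RT1-Ba lay at -1.06 and -0.98, and those of their beta partners RT1-Db1 and RT1-Bb at 0.01 and -0.25. The RT1-D alpha chain gene RT1-Da (ENSRNOG00000032844) measured 0.952, 0.991 and 0.795 FPKM in the DM rats and 2.33, 2.24 and 1.55 FPKM in the ND rats. The groups did not overlap, with means of 0.913 ± 0.104 and 2.04 ± 0.430 FPKM (SD, n = 3 each) and an SE of the log2 fold change of 0.22. The RT1-B alpha chain gene RT1-Ba (ENSRNOG00000000451) measured 1.20, 0.973 and 1.70 FPKM in the DM rats and 3.18, 2.70 and 2.02 FPKM in the ND rats. These groups did not overlap either, although DM rat 3 came close to ND rat 3. The means of RT1-Ba were 1.29 ± 0.372 and 2.63 ± 0.582 FPKM (SD, n = 3 each), and the SE of its log2 fold change was 0.25.

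The RT1-B beta chain gene RT1-Bb (ENSRNOG00000032708) measured 5.87, 5.38 and 5.26 FPKM in the DM rats and 8.18, 6.02 and 5.72 FPKM in the ND rats. DM rat 1 lay above ND rat 3, so the groups overlapped, and only ND rat 1 stood clear of the rest. The log2 fold change of RT1-Bb was -0.25 (SE 0.15), and -0.09 without ND rat 1. The RT1-D beta chain gene RT1-Db1 (ENSRNOG00000033215) measured 0.394, 4.12 and 1.08 FPKM in the DM rats and 1.02, 1.19 and 1.55 FPKM in the ND rats. The DM group held both the highest and the lowest rat, which differed 10.4-fold, and DM rat 2 was 2.66 times the next highest testis. The log2 fold change of RT1-Db1 was 0.01 (SE 0.70), near 0 with no settled direction: leaving out 1 rat at a time gave values from -0.81 (without DM rat 2) to 0.74 (without DM rat 1).

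The chains of a pair therefore did not keep a fixed ratio. Within a testis RT1-Bb was 4.89, 5.53 and 3.09 times RT1-Ba in the DM rats and 2.57, 2.23 and 2.83 times RT1-Ba in the ND rats. Every DM ratio was higher than every ND ratio, a mean difference of 0.79 on the log2 scale. The ratio of RT1-Da to RT1-Db1 was 2.41, 0.241 and 0.734 in the DM rats and 2.28, 1.89 and 0.999 in the ND rats, and these overlapped. In contrast, Cd74 kept an almost constant ratio to RT1-Da, at 3.74, 4.33 and 4.15 in the DM rats and 3.67, 4.16 and 3.99 in the ND rats. These ratios were chosen after the values had been seen.

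**Figure D3:**
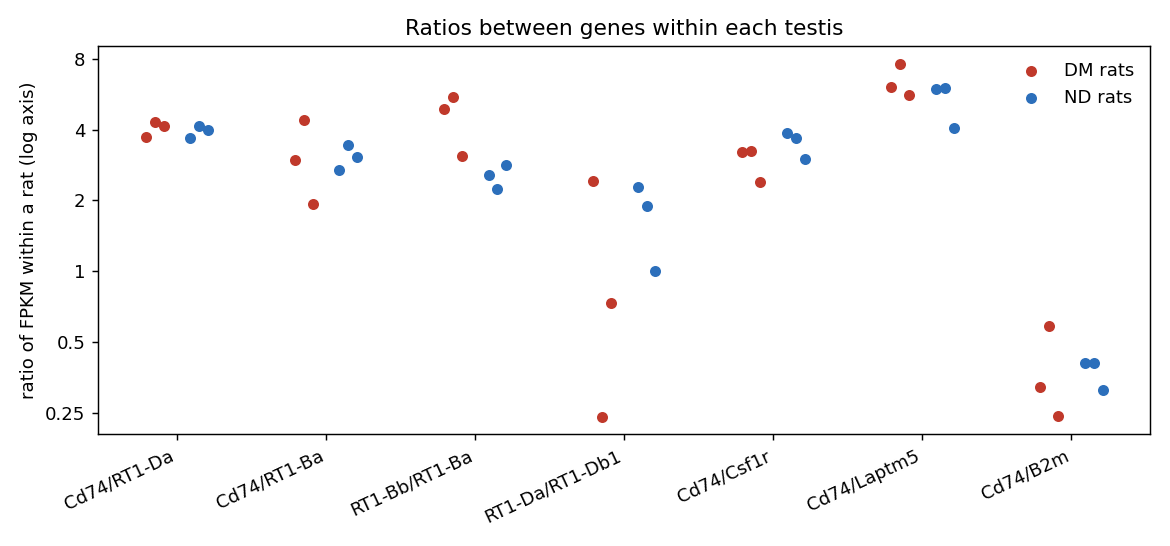
Ratio of the FPKM of 2 genes within each testis (log axis), for 3 DM and 3 ND rats; each point is a rat. Cd74/RT1-Da stays between 3.67 and 4.33 in all 6 rats, whereas RT1-Bb/RT1-Ba is 3.09 to 5.53 in the DM rats and 2.23 to 2.83 in the ND rats.

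The peptide exchange genes were measured at low levels, with means below 0.5 FPKM. RT1-DMa (ENSRNOG00000047864), the alpha chain of the DM molecule, measured 0.111, 0.160 and 0.242 FPKM in the DM rats and 0.407, 0.193 and 0.298 FPKM in the ND rats, and the groups overlapped because DM rat 3 lay above ND rat 2. A second gene of the table, LOC108348072, listed as a class II M alpha chain, had values within 0.317% to 2.44% of those of RT1-DMa in every rat. Reads shared between these copies could have been split between them, so the level of RT1-DMa is uncertain.

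RT1-DMb, the beta chain of the DM molecule, was listed under 2 identifiers. ENSRNOG00000049491 measured 0.0968, 0.495 and 0.101 FPKM in the DM rats and 0.191, 0.254 and 0.380 FPKM in the ND rats. ENSRNOG00000051002 measured 0.117, 0.307 and 0.0866 FPKM in the DM rats and 0.175, 0.152 and 0.236 FPKM in the ND rats. Both were highest in DM rat 2 and otherwise lower in DM than in ND, and copies with one symbol may share reads. RT1-DOb (ENSRNOG00000000454), the beta chain of the DO molecule, measured 0.0619 and 0.178 FPKM in DM rats 1 and 2 and 0.104 FPKM in ND rat 3, and was listed at 0 in DM rat 3 and in ND rats 1 and 2. No fold is given for it.

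The coactivator gene Ciita (ENSRNOG00000002659) measured 0.0769, 0.0520 and 0.0888 FPKM in the DM rats and 4.86, 0.141 and 0.0787 FPKM in the ND rats. ND rat 1 was 34.5 times the second highest testis, and the other 5 rats overlapped. The log2 fold change of -1.80 (SE 1.23) therefore rested on 1 animal, and without ND rat 1 it was -0.27. Ciita had a mean above 0.5 FPKM only through that rat. The genes beside Ciita in RefSeq order showed no such rat: Clec16a ranged from 26.4 to 28.8 FPKM, Dexi from 3.48 to 4.04 FPKM and Nubp1 from 7.90 to 10.5 FPKM over the 6 testes. Over the whole table, 57 genes had 1 rat at 1 FPKM or more and at least 10-fold above every other rat, and that rat was ND rat 1 for 14 of them. ND rat 1 was also the highest rat for RT1-Ba, RT1-Bb, RT1-Da and RT1-DMa, as it was for 16.9% of all genes above 0. ND rats 1 and 2 were the top pair of rats for RT1-Ba, RT1-Da, RT1-Bb and Cd74. The set was chosen with the group difference known, so nothing is read from these rankings.

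Across the 6 rats the class II genes thus fell into differing profiles. Likeness was measured as the root mean square difference between log2(FPKM + 0.1) profiles after each had been centred on its mean, so that 0 means parallel profiles. Cd74 and RT1-Da were the closest pair, at 0.08. RT1-Ba stood at 0.34 from Cd74 and at 0.31 from RT1-Da. Among the 20337 other genes compared, RT1-Da was the nearest to Cd74 (rank 1), RT1-Ba had rank 257, RT1-Bb rank 1596, RT1-Db1 rank 19513 and Ciita rank 20065. The class II genes were chosen on these same values, so nothing is read from the ranks. A further group, seen only after the values were known, had its highest level in DM rat 2: RT1-Db1, both RT1-DMb genes and RT1-DOb. In these 4 genes the top pair of rats was DM rat 2 and ND rat 3, which was the case in 6.78% of all genes above 0. Tap2, a peptide transporter subunit of the class I pathway that lies beside RT1-DOb, was also highest in these rats. It measured 0.510 FPKM in DM rat 2 and 0.557 FPKM in ND rat 3. It was at most 0.197 FPKM in the others, and 0 in DM rat 1 and ND rat 1. Other class I genes, described below, differed. Tap1 was highest in ND rat 1 (0.613 FPKM), and Psmb8 and Psmb9 were lowest in DM rat 2 (0.5695 and 0.4806 FPKM).

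**Figure D4:**
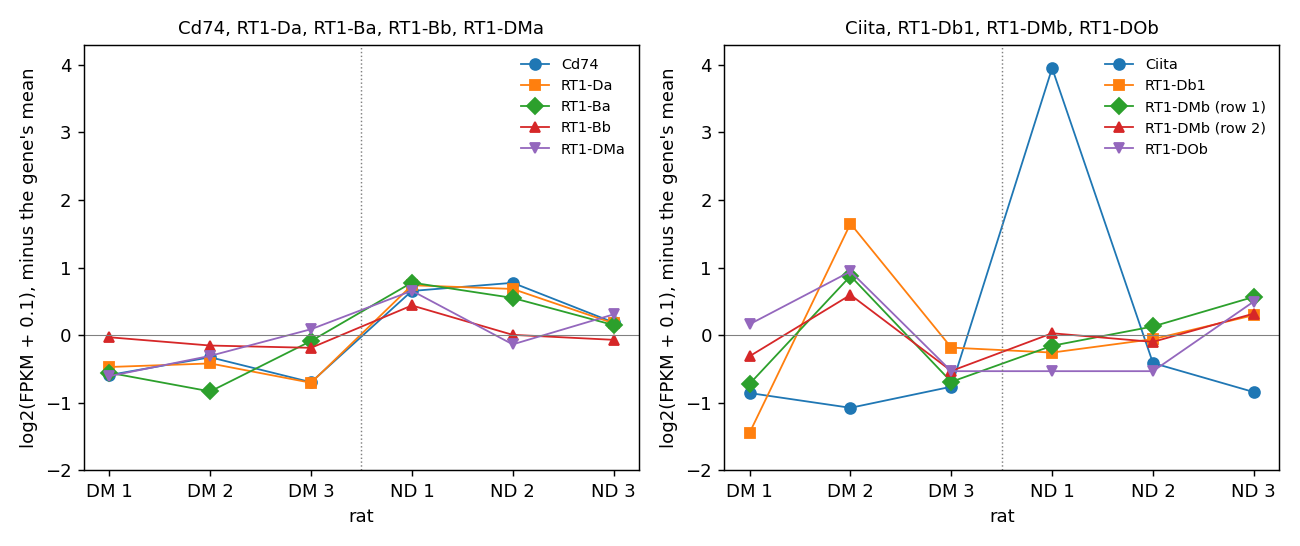
Level of each class II gene in each rat as log2(FPKM + 0.1) minus the gene's mean over the 6 rats; lines join the values of one gene and the rats of a group have no order. Left, Cd74, RT1-Da, RT1-Ba, RT1-Bb and RT1-DMa, most of them higher in the ND rats; right, Ciita with 1 high rat (ND rat 1) and RT1-Db1, RT1-DMb and RT1-DOb, which peak in DM rat 2.

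The 5 genes outside the set nearest to the median profile of the 6 class II genes above 0.5 FPKM were Irf7, Cox7b, AABR07035796.1, LOC24906 and Col4a2, at 0.11 to 0.15. These names depended on the genes behind the profile: with Ciita left out, which reached 0.5 FPKM only through ND rat 1, Irf7 and Cox7b were again among the nearest 5, and with the profile of all 10 class II genes none of the 5 was. Irf7, an interferon regulatory transcription factor, measured 0.564, 0.657 and 0.615 FPKM in the DM rats and 1.24, 1.14 and 0.883 FPKM in the ND rats. Cox7b encodes a subunit of cytochrome c oxidase and Col4a2 a chain of basement membrane collagen. Gbp2, an interferon-inducible GTPase, was the third nearest to Cd74 alone, at 1.16, 1.26 and 1.06 FPKM in the DM rats and 2.35, 2.498 and 1.84 FPKM in the ND rats. The median gene stood at 0.48 from the median profile. RT1-Da (0.20), Cd74 (0.23) and RT1-Ba (0.26) were near it, and RT1-Db1 (0.997) and Ciita (1.46) were farther away than the median gene. These class II genes helped to define the profile, so nothing is read from their nearness to it.

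The rest of the class II pathway was compared with limma across the 20338 genes that reached 0.5 FPKM on average. A gene passed the criterion when its log2 fold change was 1 or more in size and its unadjusted p was below 0.05. This held for 1.24% of the genes, 0.846% lower and 0.398% higher in DM. An adjusted p below 0.05 was reached by 0.0344% of the genes, and by 0.0246% in the lower direction. Of 34 further symbols of the pathway 29 were in the table and 21 were tested. Among them 1 passed the criterion lower, 0 passed it higher and 0 had an adjusted p below 0.05 in limma. At an unadjusted p below 0.05, 5 were lower, against 4.99% of all genes tested. Their median log2 fold change was -0.04, against -0.02 over all genes tested.

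None of the factors that bind the X and Y boxes passed the criterion. These were Rfx5, Rfxap and Rfxank, which form the RFX complex, Nfya, Nfyb and Nfyc, which form NF-Y, and Creb1. The log2 fold changes of all 7 lay between -0.17 and 0.12, and 0 had an unadjusted p below 0.05 in limma. Rfx5, for example, measured 5.14 ± 0.600 FPKM in DM and 5.30 ± 0.729 FPKM in ND (SD, n = 3 each). The remaining class II chain genes were hardly measured: RT1-Ha was listed at 0 in all rats, and RT1-DOa and RT1-Db2 were at most 0.0680 FPKM.

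Among the endosomal genes that prepare peptides and degrade the invariant chain, Ifi30, the lysosomal thiol reductase that opens disulfide bonds of antigens, fell in DM by the criterion. It measured 0.941, 1.21 and 1.69 FPKM in the DM rats and 2.83, 2.79 and 2.82 FPKM in the ND rats. The groups did not overlap, and the log2 fold change was -1.11 (SE 0.22, adjusted p = 0.28 in limma). The lysosomal proteases Ctsb and Ctsd were likewise lower in every DM rat than in every ND rat, as 8.42% of the genes tested were. Ctsb measured 26.5 ± 2.36 FPKM in DM and 38.9 ± 3.87 FPKM in ND (SD, n = 3 each; log2 fold change -0.55, adjusted p = 0.27 in limma). Ctsd measured 9.17 ± 1.52 and 13.2 ± 1.69 FPKM (SD, n = 3 each; log2 fold change -0.53, adjusted p = 0.49 in limma). Ctss, the protease best known for trimming the invariant chain, overlapped between the groups at 1.26, 1.62 and 2.35 FPKM in DM and 2.32, 3.48 and 1.57 FPKM in ND. The asparaginyl endopeptidase gene Lgmn and the protease gene Ctsl had log2 fold changes of 0.08 and 0.06.

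Interferon gamma is the classical inducer of Ciita and the class II genes. Ifng measured 0.920, 0.504 and 1.08 FPKM in the DM rats and 0.341, 0.822 and 0.246 FPKM in the ND rats. The groups overlapped, with a log2 fold change of 0.79 (adjusted p = 0.79 in limma). Irf1, an interferon-induced transcription factor, was lower in every DM rat, at 0.895 ± 0.185 against 1.36 ± 0.193 FPKM (SD, n = 3 each; log2 fold change -0.56, adjusted p = 0.66 in limma). The receptor genes Ifngr1 and Ifngr2 and the kinase genes Jak1 and Jak2 had log2 fold changes from -0.14 to 0.16. Of the partners of class II presentation at the cell contact, Cd4, the coreceptor that binds class II molecules, measured 1.20, 1.22 and 1.85 FPKM in DM and 2.54, 2.19 and 1.72 FPKM in ND. The costimulatory genes Cd40, Cd80 and Cd86 and the class II ligand gene Lag3 had means below 0.5 FPKM and were not tested.

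The class I pathway, which shows peptides of cytosolic proteins, was examined beside class II. Of 8 class I genes tested 3 fell by the criterion and 0 rose, their median log2 fold change was -0.89, and none had an adjusted p below 0.05 in limma, with 5 at an unadjusted p below 0.05. They were B2m, the light chain of class I molecules, at 10.7 ± 3.18 FPKM in DM and 21.2 ± 1.59 FPKM in ND (SD, n = 3 each; log2 fold change -1.03, adjusted p = 0.31 in limma), and the immunoproteasome subunit genes Psmb8 and Psmb9, at log2 fold changes of -1.17 and -1.02 (adjusted p = 0.32 and 0.42 in limma). These calls stood close to the threshold: after rescaling by median ratios the log2 fold changes of B2m and Psmb9 were -0.9998 and -0.9967 and 1 class I gene passed. Tap1, the partner of Tap2 in the peptide transporter, had a mean below 0.5 FPKM and was not tested, and lay at 0.486, 0.347 and 0.256 FPKM in the DM rats, below the 0.613, 0.535 and 0.566 FPKM of the ND rats. The heavy chain gene RT1-A2 and the class I coactivator gene Nlrc5, the counterpart of Ciita, were lower in every DM rat without passing, at log2 fold changes of -0.90 and -0.37 (adjusted p = 0.56 and 0.78 in limma). The ratio of Cd74 to B2m within a testis was 0.242 to 0.588 in DM and 0.313 to 0.408 in ND, which overlapped.

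Of 15 macrophage markers tested 2 fell by the criterion, 0 rose, 0 had an adjusted p below 0.05 in limma and 7 had an unadjusted p below 0.05. In 8 every DM rat lay below every ND rat, against 8.42% of all genes tested, and the median log2 fold change was -0.79. The groups overlapped for Aif1, the most abundant marker, at a log2 fold change of 0.29, and for Mrc1 (-0.06), Adgre1 (-0.13) and Cd163 (-0.23). They also overlapped for Ctss (-0.44), C1qc (-0.74) and C1qb (-0.88). The lysosomal membrane protein gene Laptm5 measured 0.577 ± 0.0131 FPKM in DM and 1.497 ± 0.0560 FPKM in ND (SD, n = 3 each; log2 fold change -1.24, adjusted p = 0.19 in limma), and the signalling adaptor gene Tyrobp had a log2 fold change of -1.76 (adjusted p = 0.34 in limma). Csf1r, the receptor of the macrophage growth factor CSF-1, had a log2 fold change of -0.79 (adjusted p = 0.34 in limma). None of the 15 markers was at 0 in any rat. The summed level of the whole list was 141.6 to 150.6 FPKM in the DM rats and 124.0 to 173.7 FPKM in the ND rats, and Aif1 alone gave 73.9 to 113.8 FPKM of it. Without Aif1 and the mannose receptor gene Mrc1, left out after the values had been seen, the sums were 18.2 to 21.5 FPKM in DM and 28.1 to 38.2 FPKM in ND.

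Whether the class II genes separated the groups per macrophage marker depended on the marker. Cd74 was divided within each testis by each of the 15 markers, a step added after the values had been seen, and the ratios overlapped between the groups for 10 markers, were lower in every DM rat for 4 and higher in every DM rat for 1. The same counts were found for RT1-Da and for RT1-Ba. The 4 markers were Aif1, Mrc1, Adgre1 and Cd163, and the 1 was Tyrobp. The ratio of Cd74 to Csf1r was 3.22, 3.26 and 2.39 in the DM rats and 3.87, 3.67 and 2.997 in the ND rats, a mean log2 difference of -0.25. Against Mrc1 it was 0.193, 0.210 and 0.140 in the DM rats and 0.404, 0.429 and 0.281 in the ND rats, a mean log2 difference of -1.03. For RT1-Bb the ratios overlapped for 10 markers and were higher in every DM rat for 5, among them Csf1r at 5.31, 4.09 and 3.81 in the DM rats and 3.69, 2.37 and 2.77 in the ND rats. The part of macrophage content in the difference of the class II genes was not tested.

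The lists of the other class II carriers and of T cells gave no gene past the criterion, and at an unadjusted p below 0.05 in limma there were 0 dendritic cell, 0 B cell and 2 T cell markers, Cd4 and Cd8a. The 3 dendritic cell markers tested had a median log2 fold change of 0.05, and the summed level of the list was 3.86 to 4.55 FPKM in DM and 3.82 to 4.799 FPKM in ND. The B cell list, with 2 markers tested, summed to 3.92 to 4.56 FPKM in DM and 3.41 to 5.24 FPKM in ND. The T cell list summed to 4.12 to 4.76 FPKM in DM and 6.04 to 7.49 FPKM in ND, and Cd8a, Cd3e and Cd2 were lower in every DM rat. Cd2, which was below 0.5 FPKM on average and not tested, was listed at 0 in DM rat 1 and measured 0.122 and 0.110 FPKM in the other DM rats and 0.377, 0.524 and 0.270 FPKM in the ND rats.

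Among the cells of the testis itself, the Leydig cell list stood out, with 4 of 5 markers tested fallen by the criterion and a median log2 fold change of -1.24. In all 5 every DM rat lay below every ND rat, and 1, Cyp17a1, had an adjusted p below 0.05 (0.0415 in limma). The list summed to 26.8 to 55.4 FPKM in DM and 81.6 to 115.3 FPKM in ND. None of 8 germ cell, 7 Sertoli cell, 5 peritubular and 4 endothelial markers tested passed, and 1 of them, the Sertoli cell marker Inha, had an unadjusted p below 0.05 in limma. The medians of these lists lay between -0.19 and 0.10. The part of the makeup of the tissue in the class II values was not tested.

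**Figure D5:**
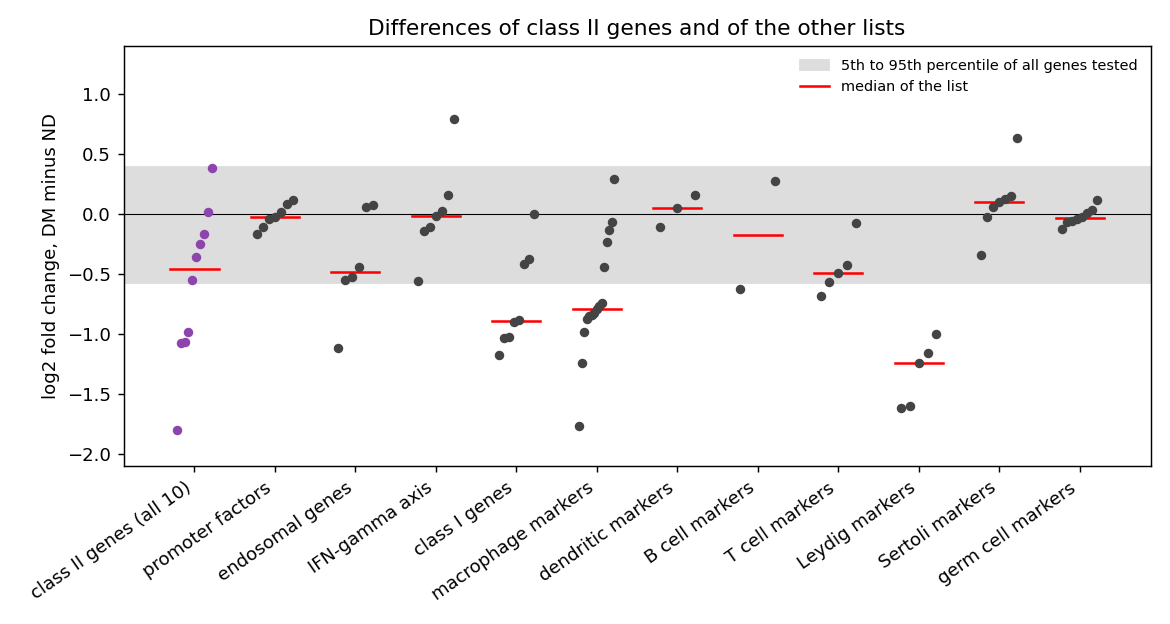
Log2 fold change, DM minus ND, of all 10 class II genes and of the tested genes of each other list, where each point is a gene and the red bar is the median of the list; the grey band spans the 5th to 95th percentile of all 20338 genes tested, -0.58 to 0.39. Class I genes, macrophage markers and Leydig markers have medians below the band. The median of all 10 class II genes, -0.45, lies within it and includes 4 genes below 0.5 FPKM. Through ND rat 1 alone, Ciita is among the 6 class II genes that were tested. The median of these 6, taken over tested genes as in the other lists, was -1.025, below the band. The class II genes were chosen with this difference known. The point of RT1-DOb depends on the pseudocount.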

How the data were processed

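RNA-Seq of testis from 3 DM and 3 ND (labelled Nor) rats was used. Per the paper's methods, the authors checked reads against rRNA with BWA, aligned reads with STAR, assembled transcripts with StringTie and screened differential transcripts with DESeq2. Tool versions and the genome build are not given in the sources used here. The deposited values are FPKM per gene, calculated by the authors. All 6 sample columns were mapped to samples by their labels.

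FPKM were analysed as log2(FPKM + 0.1) in limma 3.58.1 under R 4.3.3 (lmFit, eBayes with trend, two-sided), for the 20338 genes averaging 0.5 FPKM or more, over which p was adjusted by Benjamini-Hochberg. The script was tested on simulated data. P-values weigh the difference between the groups against the spread between the rats within a group. Summaries were made with Python 3.11.15. The class II genes and all lists were chosen with earlier results of these data known. The text names all class II genes, every gene of the pathway and class I lists that passed the criterion or whose groups did not overlap, and the 5 genes nearest to the median class II profile. Other genes named illustrate a list or a neighbour. The alternatives were other pseudocounts, filters, scalings, eBayes settings, a replicate block, summed symbols and leaving out each rat. Replicate numbers were not used as a pairing in the main comparison, since the rats are different animals. The file build being unknown, RefSeq coordinates are given for promoters only.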

Additional observations from a re-analysis of the deposited data

How the results depend on the processing

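Across 16 alternatives, 155 of 158 log2 fold changes of class II genes moved by less than 1 SD. The exceptions were RT1-Da (-0.66) and RT1-DMa (-0.15) with a pseudocount of 1, and RT1-DOb, listed at 0 in 3 rats, with a pseudocount of 0.01. Filters, eBayes settings and the replicate block cannot change a log2 fold change, and summing symbols can change only that of RT1-DMb. Many of the 158 values could therefore not move. Large shifts of genes that varied strongly between rats also stayed within 1 SD. Ciita, at -1.80, ran from -2.67 (without ND rat 3) to -0.27 (without ND rat 1). RT1-Db1, at 0.01, ran from -0.81 (without DM rat 2) to 0.74 (without DM rat 1), and was also below 0 without ND rat 1 or ND rat 2, after scaling to TPM and with a pseudocount of 0.01. RT1-Bb was -0.09 without ND rat 1. The median of all 10 class II genes, -0.45, was -0.18 with a pseudocount of 1 and -0.81 (without DM rat 2) to -0.32 when single rats were left out. The count of class II genes lower in every DM rat, 3, lay between 3 and 5, with 5 without DM rat 2, DM rat 3 or ND rat 3. Cd74, RT1-Ba and RT1-Da were among them each time. Only the scalings to TPM and by median ratios could have removed them. The other alternatives cannot undo a separation of the groups in these genes.

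Of all genes, 253 passed the criterion (172 lower, 81 higher). With a pseudocount of 1 there were 91 (55 lower, 36 higher), and with no filter 621 (385 lower, 236 higher). Leaving out rats gave 246 to 335 (153 to 230 lower, 65 to 139 higher, 139 without ND rat 1). Adjusted p below 0.05 was reached by 7 genes, by 3 with no filter, 12 without the eBayes trend, 15 with equal symbols summed, and 0 (without ND rat 3, where 1504 had an unadjusted p below 0.05 in limma) to 11 when rats were left out. The other pathway genes past the criterion, 1, became 0 with a pseudocount of 1 and 0 (without DM rat 1) to 2 (without ND rat 2). Class I genes, 3, became 0 with a pseudocount of 1, 1 after median-ratio scaling, and 0 (without DM rat 2) to 5 (without DM rat 1 or ND rat 3). Macrophage markers, 2, became 0 with a pseudocount of 1, 1 with a filter of 1 FPKM, and 2 to 6 (6 without ND rat 3). The cause was not tested.

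With the replicate number as a block, 4 genes had an adjusted p below 0.05 and 284 passed the criterion. Same-numbered rats correlated at 0.106, 0.0153 and 0.0979 in their deviations from the group means. The values for numbers 1 and 3 were the highest of all pairs of a DM and an ND rat. DM rat 2 correlated more with ND rat 3 (0.0318) than with ND rat 2. Whether same-numbered rats shared a batch was not tested. Depth could not be weighed, since no counts were given.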
